A study of Mus musculus with 8 samples.

Results

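Histone demethylases remove the methyl groups that methyltransferase complexes place on lysines of histone H3. The genes described here encode 8 such enzymes, listed by name, with earlier results of these data known, out of 21938 protein-coding genes on the assembled mouse chromosomes. They are Kdm1a, Kdm1b, Kdm5a, Kdm5b and Kdm5c, whose products act on lysine 4 (H3K4), Kdm6b, whose product acts on lysine 27 (H3K27), and Kdm2a and Kdm2b, whose products bind CpG-rich DNA. The question put to the data was whether and where ASH2L, which every KMT2 complex contains and which these H3K4 methyltransferase complexes need for their activity, was listed at the genes for enzymes that remove this mark, and how they compare with Kdm6b and the Kdm2 genes.

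ASH2L chromatin was precipitated and sequenced in iMEF cells, which are mouse embryo fibroblasts grown as an immortal line. In these cells the endogenous Ash2l gene had been inactivated by Cre recombinase, and human ASH2L fused to an FKBP12F36V degradation tag and an HA epitope was expressed from a lentiviral construct. All groups carried this fusion, and the study worked mainly with 1 clone of these cells, so the sites are those of a tagged human protein in a mouse line. The 8 libraries fell into 4 groups of 2 replicates, namely ASH2L precipitates and inputs of cells without dTAG and of cells treated with dTAG for 1 h. dTAG is a small molecule that brings the FKBP tag to the E3 ligase substrate receptor cereblon and thereby leads to loss of the fusion protein. The labels name the antibody by its target, whereas the methods of the study name antibodies against the HA tag.

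The data were 1 list of 6444 sites compiled over all samples, each with a chromosome, a start and an end. It held no signal, no score and no column per sample, so that depth, replicate error and the effect of dTAG at a site could not be measured here, and every value below describes this list without a test. Of the sites, 6428 lay on assembled chromosomes. The minimum width was 200 bp, which 1281 sites had, and the median was 268 bp. As a check of the tissue, 5 of 10 fibroblast marker genes had a site centred within 1 kb of a transcription start site (Col1a1, Prrx1, Twist1, Col1a2 and Vim), against 14.0% of all coding genes, and Col3a1, Fn1, Pdgfra, Pdgfrb and Thy1 had none. This shows sites at these genes and not their expression, so the labelled cell type cannot be checked further from the list.

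KDM1A (LSD1) and KDM1B (LSD2) are flavin-dependent amine oxidases that remove mono- and dimethyl groups from H3K4, LSD1 as part of the CoREST complex. The KDM5 proteins belong to the JmjC family of iron- and oxoglutarate-dependent dioxygenases and remove tri- and dimethyl groups from H3K4, a mark of active promoters, whereas KDM6B (JMJD3) removes methyl groups from H3K27, the mark placed by Polycomb repressive complex PRC2. KDM2A and KDM2B combine a JmjC domain with a CXXC zinc finger that binds unmethylated CpG dinucleotides, as do some KMT2 complexes through their own CXXC proteins, and KDM2B brings a variant Polycomb repressive complex PRC1 to CpG islands.

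The DNA under the sites is shown first, because the list holds only the positions of sites and no signal. The first 4 sequences are stretches of ASH2L sites that lie outside annotated exons, printed 5′ to 3′ along the strand of the gene from the GRCm38 (mm10) assembly, with every CpG in capitals. They are part of the upstream site of Kdm1a (chr4:136602788-136602947, minus strand), the intronic part of the downstream site of Kdm1a (chr4:136602065-136602231, minus strand), part of the upstream site of Kdm5a (chr6:120363605-120363848, plus strand) and the complete site next to Kdm6b (chr11:69417437-69417727, minus strand). The last 2 are the 150 bases before the annotated start of Kdm5b, where no site was listed (chr1:134560021-134560170, plus strand), and of Kdm5c, where the site follows the start (chrX:152232870-152233019, plus strand).
Kdm1a upstream site: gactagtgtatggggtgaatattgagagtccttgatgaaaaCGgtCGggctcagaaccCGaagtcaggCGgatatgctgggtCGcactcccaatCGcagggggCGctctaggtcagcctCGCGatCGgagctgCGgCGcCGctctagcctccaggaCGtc
Kdm1a downstream site, intron: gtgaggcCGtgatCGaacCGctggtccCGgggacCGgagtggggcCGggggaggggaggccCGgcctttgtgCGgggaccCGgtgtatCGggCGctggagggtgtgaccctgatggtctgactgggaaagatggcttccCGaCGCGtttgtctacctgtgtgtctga
Kdm5a upstream site: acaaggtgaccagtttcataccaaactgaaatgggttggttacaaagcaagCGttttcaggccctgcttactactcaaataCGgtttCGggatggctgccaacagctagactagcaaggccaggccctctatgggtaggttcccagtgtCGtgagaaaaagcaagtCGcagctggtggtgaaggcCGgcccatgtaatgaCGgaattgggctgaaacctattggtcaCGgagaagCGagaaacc
Kdm6b distal site: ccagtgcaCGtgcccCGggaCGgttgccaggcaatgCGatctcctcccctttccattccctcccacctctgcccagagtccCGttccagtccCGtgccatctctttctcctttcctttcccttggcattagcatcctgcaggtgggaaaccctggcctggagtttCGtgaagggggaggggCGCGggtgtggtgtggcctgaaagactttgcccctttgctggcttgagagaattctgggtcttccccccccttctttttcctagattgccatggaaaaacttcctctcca
Kdm5b before the start, no site: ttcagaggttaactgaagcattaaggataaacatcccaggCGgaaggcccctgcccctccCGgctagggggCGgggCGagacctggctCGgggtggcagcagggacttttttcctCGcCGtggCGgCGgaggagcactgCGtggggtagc
Kdm5c before the start: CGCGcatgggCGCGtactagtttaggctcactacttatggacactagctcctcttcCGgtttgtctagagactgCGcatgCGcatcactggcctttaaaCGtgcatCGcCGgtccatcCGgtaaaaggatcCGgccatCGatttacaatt

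The stretches differed in CpG content. The 160 bases of the upstream Kdm1a site held 14 CpGs, or 8.75 per 100 bp, and the 167 intronic bases of its downstream site also held 14, or 8.38 per 100 bp. The printed 244 bases of the upstream Kdm5a site held 9 CpGs, or 3.69 per 100 bp. They leave out the end of the site next to the gene, and the whole site of 288 bp held 15 CpGs, or 5.21 per 100 bp. The 291 bases at Kdm6b held 9 CpGs, or 3.09 per 100 bp. The bases before the start of Kdm5b, which had no site, held 10 CpGs (6.67 per 100 bp). Those before the start of Kdm5c, which lie outside its site, held 13 (8.67 per 100 bp), so stretches inside and outside sites overlapped in CpG density. RefSeq promoter sequences of the build were matched by symbol for 5 of the 8 genes, which were Kdm1a, Kdm1b, Kdm5b, Kdm5c and Kdm2b.

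A site centred within 1 kb of any annotated transcription start site (TSS) of a gene is called a promoter site. Kdm1a, Kdm5a, Kdm5c and Kdm2b had a promoter site, and Kdm1b, Kdm5b, Kdm6b and Kdm2a had none. Thus 4 of 8 genes (50%) had a promoter site, against 14.0% of all protein-coding genes. All 8 also counted as genes with a CpG island by the definition given below. Of the coding genes with an island, 21.1% had a promoter site, which is the closer comparison. By enzyme group, promoter sites were found at 3 of 5 H3K4 demethylase genes, 0 of 1 for Kdm6b and 1 of 2 Kdm2 genes. These numbers are too small to rank the groups. The same 4 genes had a site within 3 kb of a TSS, against 15.4% of all genes, and the same 4 had a site centred in the gene body, against 15.8% of all genes. Since longer genes offer more sequence, the gene body share was also taken over the 9820 genes within the length range of the 8 members, of which 1969 (20.1%) had such a site.

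No site was centred in a gene body beyond 3 kb of a TSS in any of the 8 genes, a class of site that 4.59% of all coding genes had, and nothing particular to the 8 genes is read from this 0. All 6 promoter sites lay at the 5′ end of their gene, even though the genes have many annotated internal starts. Of 68 distinct TSSs of these genes, 17 had a site within 1 kb and 51 had none. Kdm1a and Kdm5a each had 2 separate promoter sites, so that 2 of 8 genes had at least 2, against 2.07% of all genes. That share includes genes without any promoter site. Of the 3078 coding genes with a promoter site 455 had at least 2, beside 2 of the 4 members with one.

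**Figure D1:**
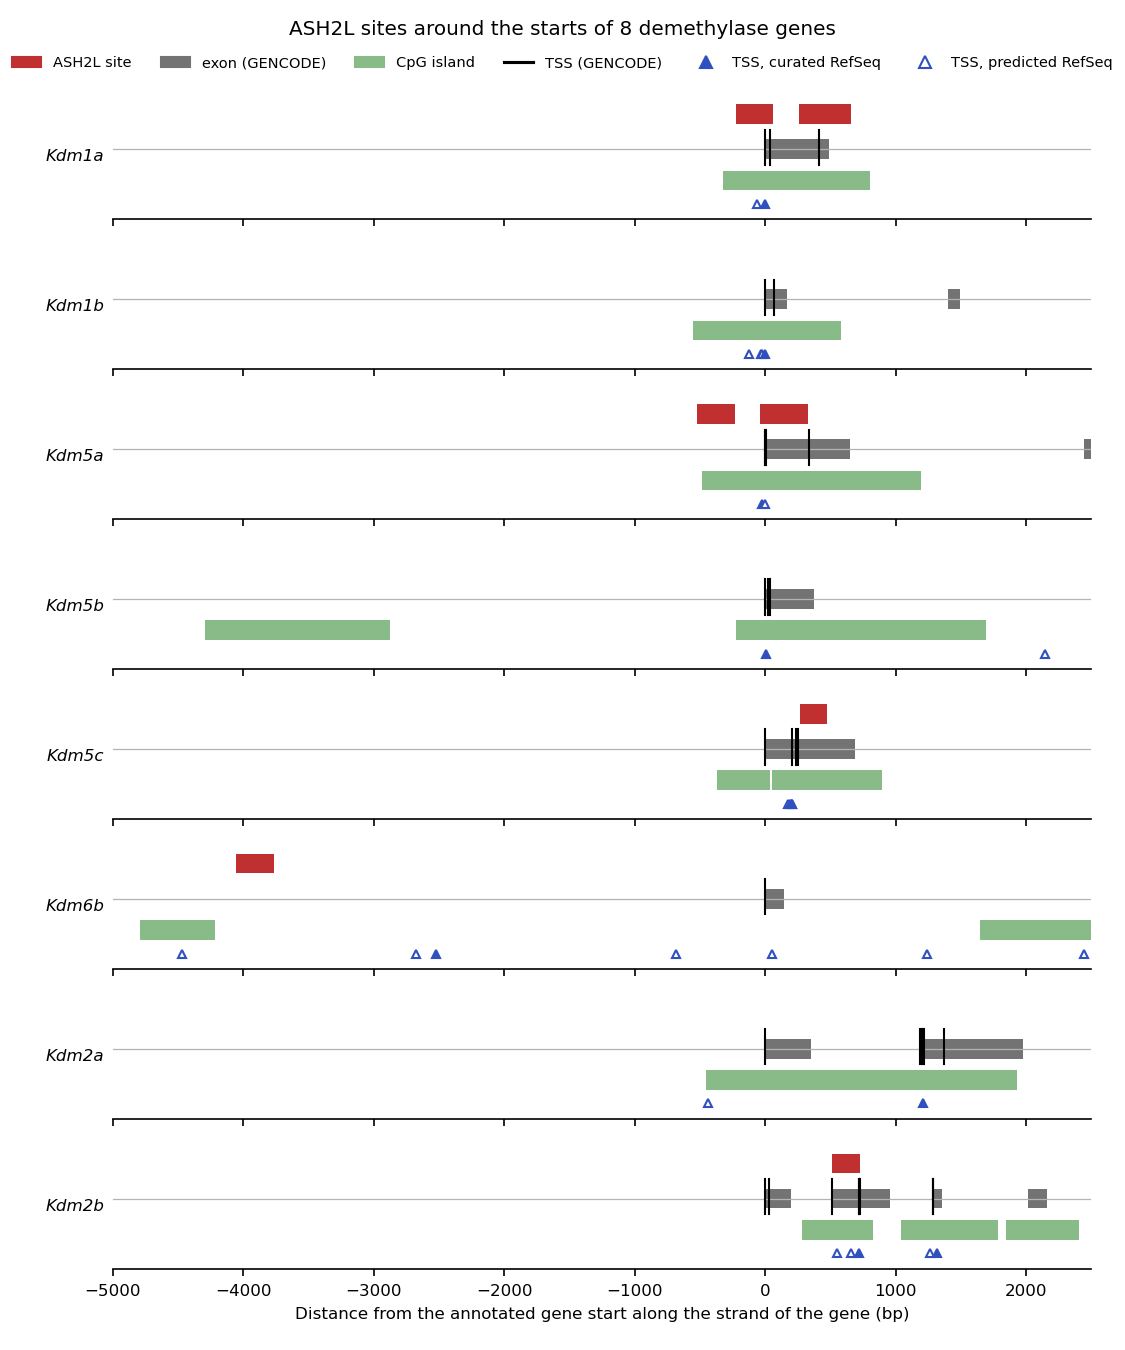
ASH2L sites, annotated exons, TSSs and CpG islands from 5000 bp before to 2500 bp after the annotated start of each of the 8 genes, plotted as distance in bp along the strand of the gene (black lines, GENCODE TSSs; triangles, RefSeq TSSs, filled where curated). Kdm1a and Kdm5a have 2 sites each, Kdm5c and Kdm2b have 1 each at the 5′ end, the site of Kdm6b lies 3907 bp before the annotated start, and Kdm1b, Kdm5b and Kdm2a have none although each has a CpG island at the start.

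**Figure D2:**
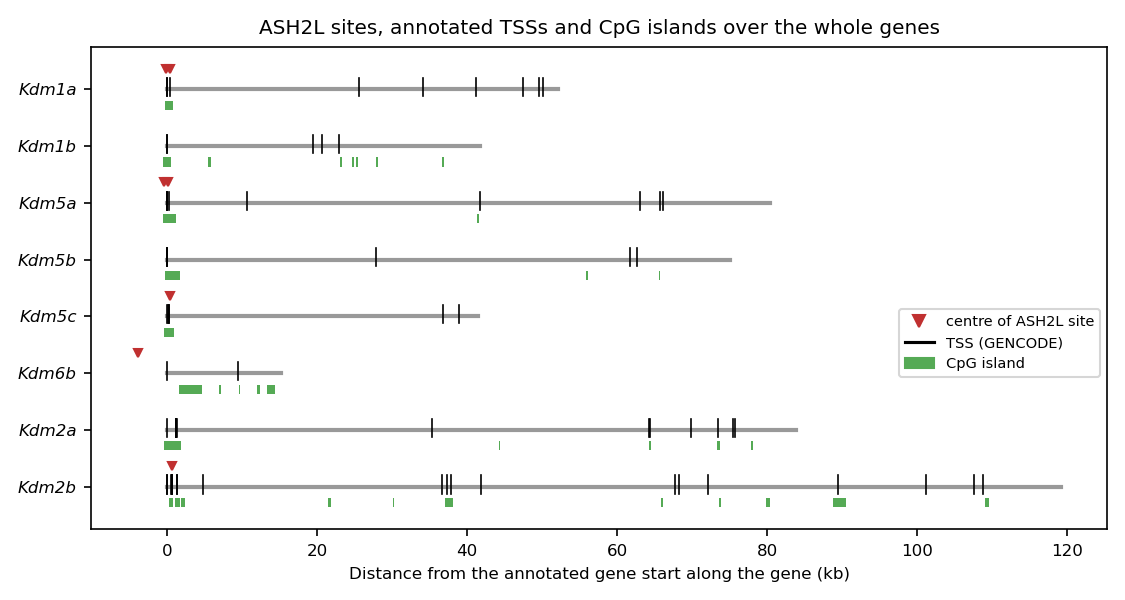
The 8 genes drawn from start to end, with distance from the annotated start in kb (grey lines, genes; black ticks, GENCODE TSSs; green, CpG islands; red triangles, centres of ASH2L sites). The sites lie within 1 kb of a 5′ TSS in 4 genes and before the gene in Kdm6b, and no start or island farther than 3 kb into a gene carries a site.

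Kdm1a, the gene for LSD1 (ENSMUSG00000036940.15, chr4:136550540-136602723, minus strand, 52.2 kb, 9 TSSs), had 2 promoter sites. The first (chr4:136602659-136602947) was 289 bp wide and centred 80 bp upstream of the TSS of Kdm1a-203, just outside the gene. It had a GC content of 65.1% and 31 CpGs (10.7 per 100 bp). The second (chr4:136602065-136602466) was 402 bp wide and centred in coding sequence, 42.5 bp downstream of the TSS of Kdm1a-201 and 457.5 bp downstream of the gene start. It had a GC content of 74.4% and 47 CpGs (11.7 per 100 bp), a CpG density at percentile 68.6 of the 3168 promoter sites of protein-coding genes.

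The sites of Kdm1a were separated by 192 bp, their centres lay 537.5 bp apart, and together they spanned 883 bp. The unlisted stretch between them was richer in CpG than either site, with a GC content of 80.7% and 32 CpGs (16.7 per 100 bp). A single CpG island of 1125 bp covered both sites completely. Summed, the sites of Kdm1a covered 691 bp, percentile 88.2 of the genes with a promoter site. The other 6 annotated starts of Kdm1a, from 25.6 to 50.2 kb into the gene, had no site.

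Kdm5a, which encodes an H3K4 demethylase first described as a partner of the retinoblastoma protein (ENSMUSG00000030180.15, chr6:120364124-120444574, plus strand, 80.5 kb, 8 TSSs), also had 2 promoter sites. The first (chr6:120363605-120363892) was 288 bp wide and centred 375.5 bp upstream of the gene start. It was the poorer of the pair in CpG, with a GC content of 51.4% and 15 CpGs (5.21 per 100 bp), and 87.2% of it lay in the CpG island of 1680 bp at this promoter. The second (chr6:120364089-120364453) was 365 bp wide and centred 139 bp downstream of the nearest TSS, in annotated UTR. Its GC content was 59.2%, it held 34 CpGs (9.32 per 100 bp) and it lay in the island completely.

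The sites of Kdm5a were 196 bp apart, with centres at a distance of 522.5 bp and a span of 849 bp, and they summed to 653 bp (percentile 86.3). The spacing was thus close to that at Kdm1a, whereas the CpG densities within the pair lay farther apart. The stretch between the sites of Kdm5a had a GC content of 56.6% and 17 CpGs (8.67 per 100 bp), between the densities of its sites and not above both as at Kdm1a. Neither site can be assigned to Kdm5a alone. Ccdc77, a coding gene on the opposite strand, has a TSS 232 bp inside Kdm5a, which was 85 bp from the centre of the second site and 607.5 bp from that of the first.

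Kdm5c (ENSMUSG00000025332.14, chrX:152233020-152274535, plus strand, 41.5 kb, 6 TSSs), the X-linked member of the KDM5 family, had 1 narrow site (chrX:152233286-152233491). It was 206 bp wide, near the minimum of the list, and at percentile 10.4 of summed width among genes with a promoter site. Its centre lay in annotated UTR, 116.5 bp downstream of the TSS of Kdm5c-201 and 368.5 bp downstream of the gene start. With a GC content of 55.3% and 9 CpGs (4.37 per 100 bp) it was at percentile 16.6 of CpG density among promoter sites.

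The Kdm5c site lay completely in a CpG island of 838 bp, while a separate island of 410 bp over the gene start carried no site. Promoter sites were rare on the X chromosome as a whole, with 24 of 948 protein-coding genes (2.53%). Kdm6a, the X-linked H3K27 demethylase gene UTX, was another of these 24. The X-linked genes Phf8, Zmym3, Bcor and Bcorl1 on the lists below had no site.

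Kdm2b (ENSMUSG00000029475.17, chr5:122870665-122989823, minus strand, 119 kb, 19 TSSs) had 1 site (chr5:122989094-122989309) of 216 bp. It was centred in annotated UTR, 102.5 bp upstream of the TSS of Kdm2b-202 and 621.5 bp downstream of the gene start, and 7 of the 19 TSSs lay within 1 kb of it. Its GC content was 64.8% with 19 CpGs (8.80 per 100 bp), and it lay completely in a CpG island of 544 bp. Its width was at percentile 14.5 of summed width. The antisense lncRNA gene A930024E05Rik has a TSS 152.5 bp from the centre of this site, so the site is shared between both genes.

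Kdm2b also has an internal coding start, Kdm2b-201, 89.5 kb into the gene, within a CpG island of 1663 bp (chr5:122899346-122901008) with a GC content of 69.9%. No site was listed there, the nearest being the 5′ site at an offset of −88.8 kb. The CpG density around the curated RefSeq starts in this island was 12.9 and 13.1 per 100 bp, at percentiles 98.8 and 98.9 of the starts of coding genes. In Kdm2b the site therefore lay at the smaller and CpG-poorer of these islands.

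Kdm2a (ENSMUSG00000054611.17, chr19:4314419-4398285, minus strand, 83.9 kb, 13 TSSs) had no site near any TSS or in the gene body. Its promoter nevertheless lay in the longest island near a TSS of any of the 8 genes, of 2384 bp, which was at percentile 98.0 of coding genes with an island. The site closest to any TSS of Kdm2a was 310 kb away. Along the strand of the gene the flanking sites were at the promoter of Ndufv1, 386 kb downstream of the start, and at that of Mrpl11, at −564 kb. The paralogues Kdm2a and Kdm2b thus differed in the presence of a site, and the gene without one had the longer island.

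Kdm1b, which encodes LSD2 (ENSMUSG00000038080.17, chr13:47043499-47085279, plus strand, 41.8 kb, 5 TSSs), had no site either. A CpG island of 1135 bp lay at its start, almost the same length as the 1125 bp of Kdm1a. The nearest site (chr13:47105405-47106150, 746 bp) was centred 62.3 kb downstream of the start and 39.3 kb from the closest TSS of Kdm1b, and it belonged to the promoter of Dek, 52.5 bp from a TSS of that gene. In the other direction the next site was at Nup153, at −316 kb from the start.

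Kdm5b (ENSMUSG00000042207.17, chr1:134560171-134635285, plus strand, 75.1 kb, 6 TSSs) had no site and the most distant downstream neighbour of the 8 genes. The nearest site (chr1:134415498-134415832) was 145 kb upstream of its start, at the promoter of Adipor1, and the next one downstream was 1785 kb away, at Camsap2. Its island of 1919 bp was longer than those of Kdm5a and Kdm5c and was at percentile 94.3 of coding genes with an island. Within the KDM5 family the autosomal Kdm5b was therefore the only one of these 3 genes without a site.

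Kdm6b (ENSMUSG00000018476.7, chr11:69398508-69413675, minus strand, 15.2 kb), the shortest of the 8 genes, was the case that depended on the annotation. With the 2 GENCODE TSSs it had no site within 3 kb. A site of 291 bp (chr11:69417437-69417727) was centred 3907 bp upstream of the annotated start. It had a GC content of 58.1%, 9 CpGs (3.09 per 100 bp) and an observed to expected CpG ratio of 0.375, and it overlapped no CpG island, the closest being one of 571 bp that was 163 bp away.

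RefSeq annotates further starts of Kdm6b upstream. The curated start (chr11, position 69416194) placed the site at −1388 bp, within 3 kb but not within 1 kb. A predicted start (position 69418140), not supported by a curated transcript, placed the site 558 bp downstream and made it a promoter site. A CpG island of 3060 bp inside Kdm6b (chr11:69408966-69412025) carried no site. RefSeq starts were consulted after the data had been seen.

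The 6 promoter sites of these genes were of ordinary width. Their widths were 206, 216, 288, 289, 365 and 402 bp, with a median of 288.5 bp, beside a median of 305 bp and quartiles of 232 and 425 bp over the 3168 promoter sites. Their median GC content was 62.0% and their median CpG density 9.06 per 100 bp, beside 66.5% and 9.50 per 100 bp over all promoter sites. Sites farther than 3 kb from any TSS, of which there were 2389, had a median GC content of 45.5% and 0.952 CpGs per 100 bp, so that the distal Kdm6b site (58.1% and 3.09 per 100 bp) lay between these medians.

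By the nearest TSS, 3 of the 6 centres lay upstream and 3 downstream. The side of the Kdm2b site rests on a small difference, since it was −102.5 bp from the TSS of Kdm2b-202 and 104.5 bp from that of Kdm2b-204, so the even split and the sign of the median are not firm. The offsets of the 6 sites were −375.5, −102.5, −80, 42.5, 116.5 and 139 bp, with a median of −18.75 bp. Over the 3640 pairs of coding gene and promoter site the median offset was 50 bp, the quartiles were −60.5 and 219.5 bp, and 61.4% of centres were downstream. The 3 downstream offsets lay between these quartiles and the 3 upstream offsets lay below the lower one, with the upstream Kdm5a site farthest from a TSS.

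**Figure D3:**
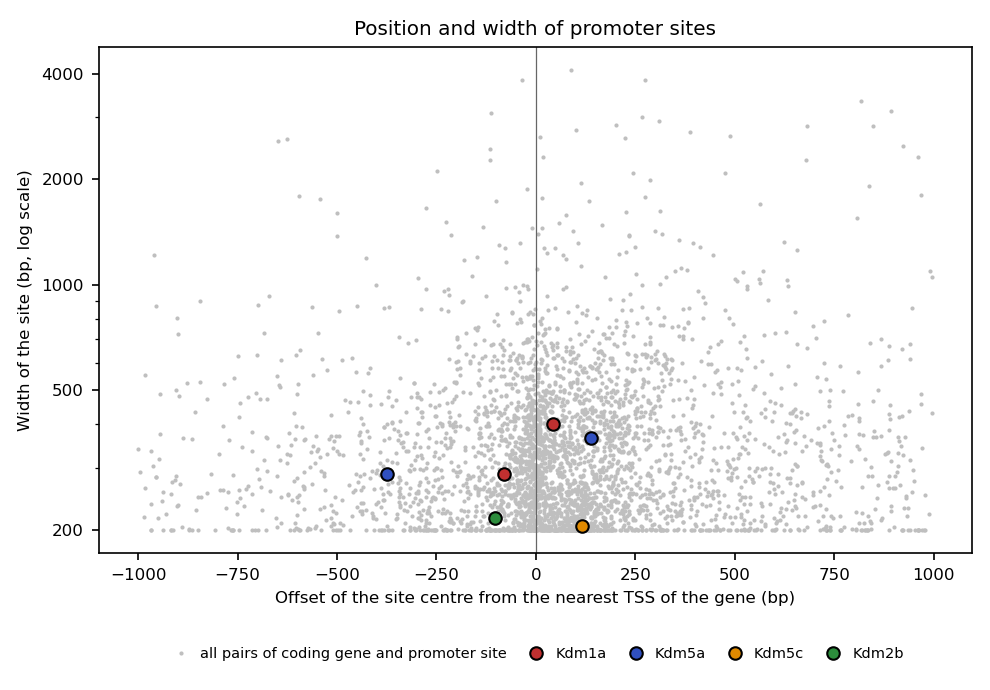
Width in bp (log scale) of promoter sites against the offset of their centre from the nearest TSS of the gene in bp, for the 3640 pairs of coding gene and site (grey) and the 6 sites of Kdm1a, Kdm5a, Kdm5c and Kdm2b (coloured). The coloured points span offsets from −375.5 to 139 bp and widths from 206 to 402 bp, and Kdm5c and Kdm2b lie close to the minimum width of 200 bp.

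CpG islands did not separate the genes with a site from those without. An island had to be 200 bp or longer, hold over 50% G and C, and reach more than 0.6 of the CpGs expected from its base composition. All 8 genes had an island within 1 kb of a TSS, against 65.2% of all coding genes, and of all coding genes with an island 21.1% had a promoter site. Kdm6b counted only through an island of 219 bp beside the noncoding start Kdm6b-202, 9.46 kb into the gene, and none lay within 1 kb of its coding start. With an island required to overlap a TSS, 7 of the 8 genes had one, all but Kdm6b, against 60.1% of all coding genes. The longest island near a TSS was 838 to 1680 bp in the 4 genes with a site and 219 to 2384 bp in the 4 genes without, so the ranges overlapped. For Kdm2b this is the island of 1663 bp inside the gene, which carried no site, and the island under its site was 544 bp long. Over all genes with an island the median was 1139 bp with a promoter site and 942 bp without. There were 18 islands within 1 kb of a TSS of these 8 genes, of which 4 carried a site and 14 did not. Over all coding genes 14.4% of 18186 such islands carried one.

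CpG density in the 500 bp on either side of the annotated gene start gave a similar picture. It was 10.3 per 100 bp at Kdm1a, 7.79 at Kdm5a, 5.29 at Kdm5c and 3.20 at Kdm2b, the genes with a site. It was 8.89 per 100 bp at Kdm1b, 8.69 at Kdm2a, 7.39 at Kdm5b and 1.20 at Kdm6b, the genes without. These values depend on the start used. At curated RefSeq starts, consulted after the data had been seen, the density was 2.80 per 100 bp at Kdm6b, 12.9 at Kdm2a and 5.00 at the first of the curated Kdm2b starts. With GENCODE starts the median was 7.09 per 100 bp over coding genes with a promoter site and 3.30 over those without. Kdm1b, Kdm2a and Kdm5b, which had no site, were above both medians, and Kdm5c and Kdm2b, which had one, were below the median of genes with a site.

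**Figure D4:**
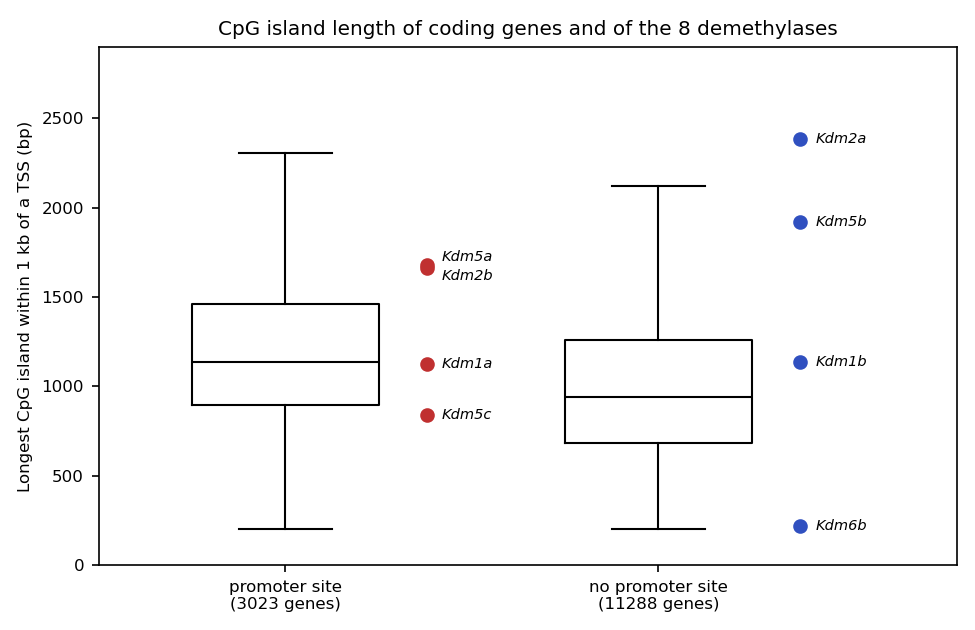
Length in bp of the longest CpG island within 1 kb of a TSS for 3023 coding genes with and 11288 without a promoter site (line, median; box, quartiles; whiskers, farthest gene within 1.5 interquartile ranges of the box), with the 8 demethylase genes as points (for Kdm2b and Kdm6b this is an island inside the gene, far from its start). Kdm2a at 2384 bp and Kdm5b at 1919 bp have the longest islands of the 8 and no site.

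Consensus motifs of promoter-binding factors were searched on both strands in the 200 bp around the centre of each site. None of the 6 sites held the ETS motif (CCGGAAGT, found in 5.59% of the 3168 promoter sites), the SP/KLF motif (CCCCGCCCC, 5.62%), the CRE (TGACGTCA, 0.915%), the E-box (CACGTG, 3.31%) or the YY1 motif (AAGATGGCG, 2.11%). With shares this low in all promoter sites, no match in 6 windows says only that these letters were not in them.

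Genes that act with or against these enzymes were taken from lists. Of 19 other histone demethylase and JmjC genes 5 had a promoter site (26.3%), and 17 had an island, beside a promoter site at 14.0% of all coding genes and 21.1% of those with an island. They were Jmjd1c with 2 sites summing to 1053 bp, the H3K27 demethylase gene Kdm6a with 907 bp, the H3K9 demethylase genes Kdm3b with 729 bp and Kdm4b with 300 bp, and Jmjd6 with 300 bp. The sums at Jmjd1c, Kdm6a and Kdm3b were each above the highest of the 8 genes, which was 691 bp at Kdm1a.

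Of 12 genes for partners of LSD1 and LSD2 in complexes, 2 had a promoter site (16.7%), near the 14.0% of all coding genes and the 21.1% of those with an island, which all 12 have. These were Glyr1, a cofactor of LSD2, with 279 bp centred 697 bp upstream, and Phf21a, a reader of unmethylated H3K4 in the CoREST complex, with 246 bp centred 11.5 bp downstream. Of 9 genes for partners of KDM2B in variant PRC1, all with an island, 5 had a promoter site (55.6%), beside the same 21.1%. Rybp had 614 bp, the ubiquitin ligase gene Rnf2 537 bp, Yaf2 493 bp, Skp1a 201 bp and Usp7 200 bp. The sites of Rybp, Rnf2 and Yaf2 were wider than the 216 bp of Kdm2b itself. Of 10 other genes with a CXXC zinc finger, all with an island, 1 had a site (10%), which was Kmt2a with 605 bp. This stands beside 14.0% of all coding genes and 21.1% of those with an island, and 1 gene is too few to read a difference.

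The genes for the enzymes that place the marks, all with an island, are read against the same 21.1%. Of 6 H3K4 methyltransferase genes 5 had a promoter site (83.3%), with summed widths of 824 bp at Setd1a, 669 bp at Setd1b (2 sites), 605 bp at Kmt2a, 525 bp at Kmt2d and 424 bp at Kmt2c, while Kmt2b had none. The H3K4 demethylase genes had sites at 3 of 5, with summed widths of 691, 653 and 206 bp, which overlapped the range of the methyltransferase genes. Of 4 genes of the H3K27 methyltransferase core 1 had a site (25%, near that share), which was Suz12 with 498 bp centred 714.5 bp downstream. Kdm6b, which encodes the opposing enzyme, had none within 3 kb of a GENCODE start, but had 1 at −1388 bp from the curated RefSeq start. These lists hold 4 to 19 genes each and were not tested against each other.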

How the data were processed

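ChIP-seq libraries of 4 ASH2L precipitates and 4 inputs were described by the labels. Per the study's methods the authors used Trim Galore for trimming, BWA for alignment to mm10, SAMtools for filtering, Picard to merge replicates and MACS for narrow peaks. The deposited values used here were the positions (other unit) of the union of sites, without counts, so the planned test of dTAG was not run. The list of sites changed by dTAG was not analysed here. Peak width depends on the caller and its minimum width.

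Starts were read as counted from 0 and are printed from 1. GENCODE mouse release 21 gave TSSs, which is an earlier release than the authors used, and GRCm38.p6 the sequence. Sites were represented by their centre. A percentile is the share of values below the one given, ties counted equally on both sides. All 8 members were described. From each list, genes with a promoter site were named in order of summed width, and other genes where they share a member's promoter site. Genes at flanking sites and listed genes without a site were named after their values were seen. The members and lists were chosen with earlier results of these data known. Alternatives changed the window, TSSs, sites and islands. The counting functions were tested on simulated data. Python 3.11.15, NumPy 2.4.6, SciPy 1.17.1 and matplotlib 3.10.9 were used.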

Additional observations from a re-analysis of the deposited data

How the results depend on the processing

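The list holds no value per library, so no replicate could be left out and no depth limits can be given. No paired analysis was possible because the list has no column per sample and no result comes from a test. Of 35 alternatives, 33 were labelled unchanged. A count had to stay within 1.5 times the main value, so the addition of Kdm6b with RefSeq transcripts passed. The median offset had to move by less than 190 bp, the SD of the 6 member offsets, so its changes of sign with RefSeq starts passed. Summed widths had to stay equal at 3 kb. That outcome was fixed, because no member gained a site between 1 and 3 kb. Kdm1a, Kdm5a, Kdm5c and Kdm2b remained the 4 genes with a promoter site with a window of 500 bp or 2 kb, protein-coding transcripts, the gene start alone, any base of a site, sites wider than 200 bp, merged sites and starts counted from 1. The gene body count went from 4 to 0 when the part within 3 kb of a TSS was left out. The median offset moved from −18.75 to 258 bp when measured from the gene start alone. With RefSeq transcripts, an alternative chosen after seeing the data, 5 genes had a promoter site (13.7% of all genes), Kdm6b being added. With curated RefSeq transcripts 4 had one (13.6% of all genes) and 5 had a site within 3 kb (14.9% of all genes). The median offset was 147 bp with RefSeq transcripts and 40.75 bp with curated ones. With stricter islands 7 of 8 genes had one, all but Kdm6b, against 46.7% of all coding genes.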
